A study of Mus musculus with 8 samples.

Results

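Selenoproteins are proteins that carry the amino acid selenocysteine, and Gpx3, the secreted glutathione peroxidase made by kidney tubules, is the selenoprotein gene the kidney is best known for. Here 9 mouse genes were taken by symbol from a table of kidney expression: Gpx1, Gpx3, Gpx4, Gpx6, Selenop, Selenow, Selenok, Selenos and Dio1. Of these 9 genes, 5 (Gpx1, Gpx3, Gpx4, Gpx6 and Dio1) were found among the 21759 genes of the table, by current or older symbol. Selenop, Selenow, Selenok and Selenos were not analysed here. The genes were chosen by symbol with their measured levels and differences between the groups already known, so their values are given as a description and carry no test.

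All 8 kidneys came from male knock-in mice, 8 months old, that model MUC1 kidney disease, a heritable disorder of the renal tubules. The 4 control mice received vehicle (saline) and the other 4 received BRD4780, a small molecule, at 50 mg/kg, each once a day over 7 days; GEO titles give this second treatment as AGN50. Both groups carry the knock-in, and no group without it was analysed here. RNA came from a sagittal slice of the kidney, so every level is a mixture over all cell types of the slice. In such bulk RNA, fewer cells of a type and less RNA per cell cannot be told apart.

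Selenocysteine is inserted at an in-frame UGA codon, which other mRNAs read as stop, with the help of a hairpin in the 3′ untranslated region and a dedicated tRNA. Several glutathione peroxidases, Gpx1, Gpx3 and Gpx4 among them, place it in the active site. There it reduces hydrogen peroxide or lipid peroxides at the expense of glutathione. When selenium is short, selenoprotein mRNAs are known to be lost to different extents, with Gpx1 among the most sensitive and Gpx4 among the least. Proximal tubule cells make Gpx3 and release it into plasma and onto basement membranes, and they also hold Dio1, the deiodinase that turns thyroxine into active thyroid hormone. Selenium supply was not measured in these mice.

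With BRD4780, Gpx3 took a larger share of all counts in every treated mouse than in any vehicle mouse, with a mean of 3.57% against 2.48%. Relative to the summed markers of proximal tubule, the groups overlapped. The other genes did not follow Gpx3. Gpx4, the lipid peroxide reductase, had a lower group mean, at 902 against 998 counts per M (CPM). Gpx1, the main cytosolic peroxidase, was lower in 3 of 4 treated mice and highest of all 8 libraries in the fourth. Dio1 had a mean of 19.5 CPM against 33.8. Gpx6 was close to the limit of detection.

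The feature that defines the family is the UGA codon and the bases around it. The stretch of 45 bases centred on this codon, as DNA 5′ to 3′ on the sense strand, was read from the GENCODE M21 transcripts (GRCm38, mm10) for the 5 measured genes, because it shows which of them hold the codon and how far the active site has diverged. The capitals mark the selenocysteine codon or, in Gpx6, the codon in its place.
Gpx3: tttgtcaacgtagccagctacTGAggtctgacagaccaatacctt
Gpx1: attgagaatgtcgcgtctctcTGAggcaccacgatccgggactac
Gpx4: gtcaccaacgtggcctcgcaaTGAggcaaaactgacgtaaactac
Gpx6: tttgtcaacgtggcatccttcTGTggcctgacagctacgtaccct
Dio1: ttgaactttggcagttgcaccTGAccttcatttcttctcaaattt

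Gpx6 went against the label of selenoprotein: the annotation gives it no selenocysteine codon. Its in-frame stretch nearest to that of Gpx3 matched at 32 of 45 bases, and the next best stretch matched at 20. It differed from Gpx3 inside the codon by A24T, counted from 1 at the 5′ end of the stretch, and TGT is a cysteine codon. Outside the codon, the stretches of Gpx4 and Gpx1 were further from Gpx3 than that of Gpx6: identity over all 45 bases was 53.3% for Gpx4, 46.7% for Gpx1 and 71.1% for Gpx6. Dio1, which belongs to another protein family, had 33.3%.

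The place of the codon in the transcript also differs. A stop codon that lies well before the last exon junction can mark an mRNA for nonsense-mediated decay, and the UGA of a selenoprotein mRNA is read as stop when it is not decoded. Gpx3 lies on chromosome 11 (54902453 to 54910377, plus strand), with 5 exons in its longest coding transcript, and its codon 73 of 226 at chr11:54907256-54907258 is in exon 2, 240 bases before the last junction. Gpx1 on chromosome 9 (108338903 to 108340343, plus strand) has 2 exons, with codon 47 at chr9:108339451-108339453 in exon 1, 105 bases before the junction. Gpx4 on chromosome 10 (80047166 to 80056439, plus strand) has codon 129 of its longest transcript at chr10:80054737-80054739 in exon 3 of 7, 342 bases before the last junction. All of these codons, and that of Dio1, thus lie upstream of a junction. Dio1 on chromosome 4 (107291465 to 107307169, minus strand) has codon 126 at chr4:107297700-107297702 in exon 2 of 4, 303 bases before the last junction. Gpx6 on chromosome 13 (21312125 to 21319624, plus strand) has 5 exons, and its TGT codon 73 stands at chr13:21313777-21313779. Outside the 5 genes, Gpx2 has its codon 102 bases and Msrb1 34 bases before the last junction. The codons of Txnrd1, Txnrd2, Txnrd3 and Dio2 lie in the last exon, and those of Sephs2 and Dio3 in transcripts of a single exon. None of the 5 genes shares exons with another gene. Gpx4 shares 61.7% of its 50-base words with its pseudogene Gpx4-ps2 and with AC122253.3, so its counts depend on how reads were split among these copies.

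**Figure D1:**
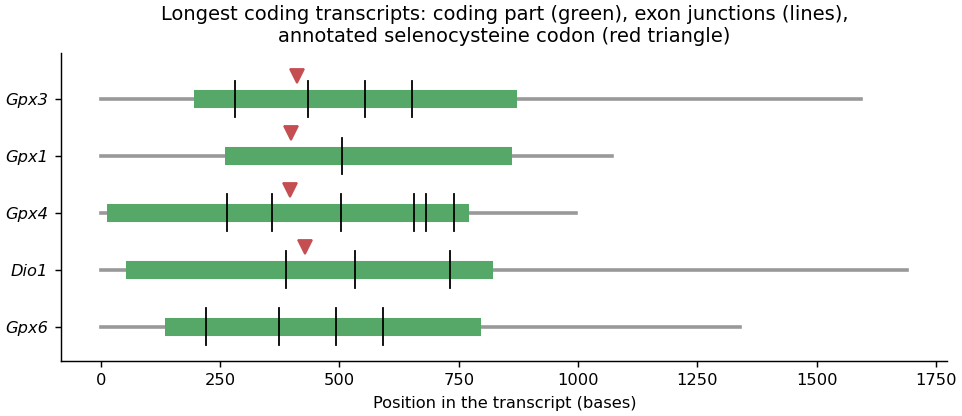
Longest coding transcript of each measured gene, with the position in bases on the horizontal axis, the coding part in green, exon junctions as black lines and the annotated selenocysteine codon as a red triangle. The triangle lies upstream of the last junction in Gpx3, Gpx1, Gpx4 and Dio1, and Gpx6 has none.

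Library totals were 28.5, 28.1, 16.6 and 23.8 M expected counts for vehicle replicates 1 to 4, and 23.2, 28.2, 27.8 and 5.74 M for BRD4780 replicates 1 to 4. The 18 markers of proximal tubule were counted in every library and summed to between 23470 and 32977 CPM, so the main tubule cell type of kidney was present in all of them. Of the adipocyte markers, Plin1, Retn and Lep were at 0 in at least 1 library. BRD4780 replicate 3 stood apart: its proximal tubule sum of 32977 CPM was above the vehicle range of 27314 to 28146, where the other 3 treated libraries lay below it, at 23470 to 24273. Results whose call rests on it are given with and without it.

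By counts, Gpx3 ranked behind only Kap, the androgen-regulated protein gene of mouse proximal tubule, among the genes of the table in 6 libraries. It had the most counts of all in BRD4780 replicates 2 and 4. Genes without a row have no part in this rank or in the total. Its share of the library total was 2.44%, 2.17%, 2.86% and 2.44% in vehicle replicates 1 to 4. With BRD4780 it was 3.52%, 3.88%, 3.05% and 3.81%. The groups did not overlap, and the closest pair was vehicle replicate 3 and BRD4780 replicate 3. The means were 2.48% ± 0.285 (SD, n = 4) and 3.57% ± 0.376 (SD, n = 4), which is a difference of 1.09 points or a ratio of 1.44. Counting error is far smaller than the spread between mice: the exact binomial 95% interval was 3.79% to 3.82% in BRD4780 replicate 4, the shallowest library, and 2.17% to 2.18% in vehicle replicate 2. The intervals of vehicle replicates 1 and 4 overlapped, and those of no other pair did.

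A share depends on the other abundant genes. Kap, which Gpx3 overtook in 2 treated libraries, took 4.18%, 4.51%, 4.14% and 4.86% of the vehicle libraries and 3.74%, 2.74%, 4.27% and 3.07% of the treated ones. The Kap groups overlapped, since BRD4780 replicate 3 lay within the vehicle values. With the 10 most abundant other genes left out of the total, the Gpx3 share was 2.74% with vehicle and 3.88% with BRD4780, a difference of 1.14 points. Counted per 100 counts of all other genes, Gpx3 went from 2.54 to 3.70. The difference was therefore about as large under each denominator.

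**Figure D2:**
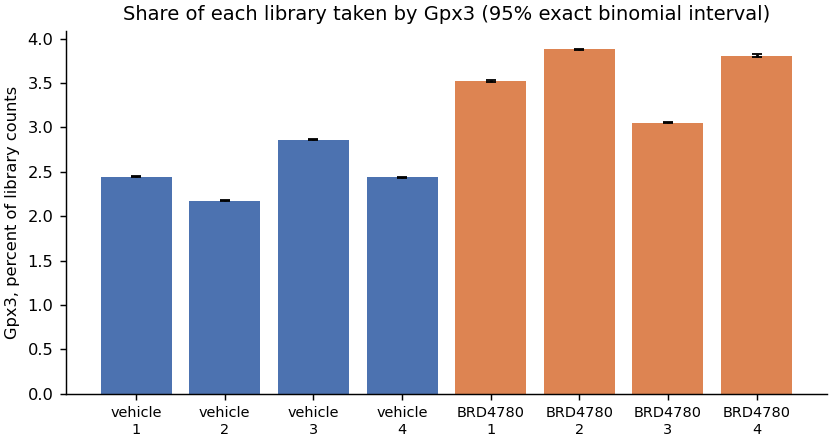
Share of each library's counts that came from Gpx3, in percent on the vertical axis, for the 4 vehicle (blue) and 4 BRD4780 (orange) libraries, with exact binomial 95% intervals that cover counting error only. The vehicle bars lie between 2.17% and 2.86% and the BRD4780 bars between 3.05% and 3.88%.

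On the scale of CPM with TMM-scaled totals, Gpx3 stood at 25043, 22494, 29008 and 25016 CPM with vehicle and at 33831, 36704, 31848 and 36557 CPM with BRD4780. Every treated library lay above every vehicle library. The log2 fold change of Gpx3 was 0.45 ± 0.13 (SE, n = 4 per group), a fold of 1.37. Other scalings and the fits without each library gave 0.40 to 0.51.

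Gpx1, the abundant cytosolic and mitochondrial peroxidase, did the opposite in most mice. Its levels were 2273, 2086, 2210 and 2073 CPM with vehicle and 1606, 1734, 2340 and 1532 CPM with BRD4780. BRD4780 replicates 1, 2 and 4 lay below all vehicle libraries, whereas BRD4780 replicate 3 was the highest of all 8. The log2 fold change of Gpx1 was −0.26 ± 0.14 (SE, n = 4 per group), and without BRD4780 replicate 3 it was −0.41. The vehicle mice were close to each other, with a coefficient of variation of 4.49%, against 20.4% in the treated mice.

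Gpx4 reduces lipid peroxides within membranes and is the enzyme that holds back ferroptosis, a form of iron-dependent cell death. It stood at 1071, 961, 986 and 975 CPM with vehicle and at 918, 919, 936 and 834 CPM with BRD4780. The treated libraries all lay below the vehicle libraries, although the gap between the closest values, 961 and 936 CPM, was small. The log2 fold change was −0.15 ± 0.08 (SE, n = 4 per group), and the spread within each group was about 5% of the mean (4.96% and 5.11%).

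Dio1, the type 1 deiodinase, had the lowest fold of the 5 genes. Vehicle libraries held 37.9, 37.0, 24.6 and 35.8 CPM and treated libraries 18.4, 18.5, 27.0 and 14.2 CPM. The groups overlapped only through vehicle replicate 3, which was low for its group, and BRD4780 replicate 3, which was high for its own. The log2 fold change was −0.77 ± 0.19 (SE, n = 4 per group). It ranged from −0.96 without BRD4780 replicate 3 to −0.67 over the other fits.

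Gpx6, a peroxidase best known from olfactory tissue, was barely present, at 22, 38, 23 and 21 counts with vehicle and 41, 27, 32 and 23 counts with BRD4780. That corresponds to 0.790, 1.40, 1.40 and 0.906 CPM against 1.70, 0.906, 1.20 and 3.85 CPM. The high value of BRD4780 replicate 4 rests on 23 counts in the shallowest library. The groups overlapped, and the log2 fold change of 0.60 ± 0.44 (SE, n = 4 per group) fell to 0.18 without that library. It thus rested largely on that library.

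**Figure D3:**
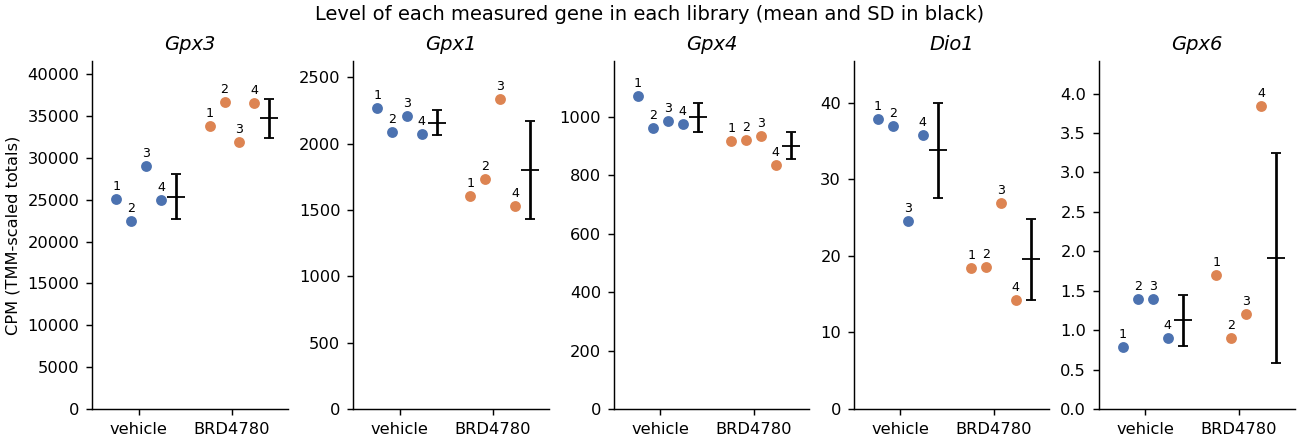
CPM with TMM-scaled totals of each measured gene (vertical axes start at 0 and differ between panels) in the 4 vehicle (blue) and 4 BRD4780 (orange) libraries, numbered by replicate, with the mean and SD in black. All 4 treated libraries lie above the vehicle libraries for Gpx3 and below them for Gpx4, and BRD4780 replicate 3 lies with or above the vehicle libraries for Gpx1.

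With edgeR's quasi-likelihood test, 394 of 13474 genes (2.92%) passed the adjusted threshold of 0.05, 310 of them higher (2.30%) and 84 lower (0.623%). Of the 5 genes described here, all of which passed the filter on low counts, 0 were past that threshold. At an unadjusted p under 0.05 there were 2 of 5, Gpx3 and Dio1, where 24.6% of all genes were. DESeq2 called the same 2, where it called 10.2% of 13297 genes. Without BRD4780 replicate 3, edgeR called 3 of 5, Gpx1, Gpx3 and Dio1, but 3184 genes in all. Gpx3 was among 1002 genes (7.44%) whose treated libraries all lay above the vehicle libraries, and Gpx4 among 695 (5.16%) whose treated libraries all lay below. Over the 5 genes the log2 fold change had a median of −0.15, and over all genes tested a median of 0.01. Since the 5 genes were chosen with this contrast known, nothing is read from these counts.

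The proportion of Gpx3 to Gpx1 and to Gpx4 differed between the groups. Within a library, the number of Gpx3 counts per Gpx1 count does not depend on the total. It was 11.0, 10.8, 13.1 and 12.1 with vehicle and 21.1, 21.2, 13.6 and 23.9 with BRD4780. The groups did not overlap, but BRD4780 replicate 3 was much closer to the vehicle libraries than to its own group. The means were 11.7 ± 1.07 and 19.9 ± 4.40 (SD, n = 4 each), and the treated mean was 22.03 ± 1.59 without that library (SD, n = 3). Gpx3 counts per Gpx4 count, at 23.4, 23.4, 29.4 and 25.6 with vehicle and 36.8, 39.9, 34.0 and 43.8 with BRD4780, did not overlap either. Gpx1 counts per Gpx4 count overlapped, with means of 2.17 ± 0.0556 and 1.99 ± 0.342 (SD, n = 4 each). This overlap came only from BRD4780 replicate 3, which lay above all vehicle values. BRD4780 replicates 1, 2 and 4, at 1.75, 1.89 and 1.84, lay below the lowest vehicle value of 2.12. Without BRD4780 replicate 3 the treated mean of this ratio was 1.82 ± 0.0697 (SD, n = 3).

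The table held 12 genes with an annotated selenocysteine codon, 4 of the genes above and 8 others. Selenoprotein genes without values here, Selenop, Selenow, Selenok and Selenos among them, have no part in the shares that follow. Of all counts on these 12 genes, Gpx3 took 85.2%, 84.4%, 87.5% and 86.0% in vehicle libraries and 90.8%, 91.1%, 87.9% and 91.8% in treated ones. Together they made up 2.57% to 3.27% of a vehicle library and 3.47% to 4.26% of a treated one. Without Gpx3 the other 11 made up 0.397% to 0.426% and 0.341% to 0.422%. The groups overlapped only through BRD4780 replicate 3, at 0.422%. BRD4780 replicates 1, 2 and 4, at 0.356%, 0.380% and 0.341%, lay below all vehicle values. The larger share of the library spent on these mRNAs with BRD4780 thus lay in Gpx3.

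Levels of different genes were set side by side as CPM per kilobase of the longest coding transcript. Gpx3 stood at 15929 ± 1689 CPM per kilobase with vehicle (SD, n = 4), Gpx1 at 2015 ± 90.4 and Gpx4 at 1003 ± 49.8. This order held in 8 of 8 libraries. Next came 2 selenoproteins outside the chosen genes, Sephs2 (268), which makes the selenium donor, and Msrb1 (184), a methionine sulfoxide reductase, and then the cytosolic thioredoxin reductase Txnrd1 (31.8). Dio1 followed, between 8.42 and 22.4 CPM per kilobase over the 8 libraries, and lay above the mitochondrial thioredoxin reductase Txnrd2 in 5 of 8, so these neighbours were not separated in all of them. Gpx6, at 0.839 ± 0.241, lay above Gpx7 (0.653) in 4 of 8. These lower places depend on the length used. Per kilobase of the median coding transcript, vehicle means put Dio1 (54.2) above Txnrd1 (34.7) and Gpx7 (1.04) above Gpx6 (0.839). Gpx2, the intestinal peroxidase, was at 0 in 4 libraries and at most 0.173 CPM per kilobase in the others, and Gpx5, of the epididymis, was at 0 in all 8. At the limit that a count of 0 allows (3 counts), levels of up to 0.105 CPM in the deepest library and 0.523 CPM in the shallowest cannot be seen.

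Both Gpx3 and Dio1 are made in proximal tubule, and the sum of the 18 proximal tubule markers moved between libraries: 28022, 27314, 27658 and 28146 CPM with vehicle and 24273, 24078, 32977 and 23470 CPM with BRD4780. Per 100 of these marker counts, Gpx3 counts were 89.4, 82.4, 105 and 88.9 with vehicle and 139, 152, 96.6 and 156 with BRD4780. On this scale, which was added after the values had been seen, BRD4780 replicate 3 fell below vehicle replicate 3 and the groups overlapped, with a ratio of means of 1.49. Without BRD4780 replicate 3, the treated values lay above all vehicle values on either scale.

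The same scale had the opposite effect on Gpx1 and Dio1. Gpx1 counts per 100 proximal tubule marker counts were 8.11, 7.64, 7.99 and 7.37 with vehicle and 6.62, 7.20, 7.10 and 6.53 with BRD4780. The groups, which overlapped in CPM, did not overlap here, and the ratio of means was 0.882. Dio1 counts were 0.135, 0.136, 0.0890 and 0.127 with vehicle and 0.0759, 0.0769, 0.0818 and 0.0606 with BRD4780, again without overlap and with a ratio of 0.606. Gpx4 overlapped on this scale, with a ratio of 0.974.

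**Figure D4:**
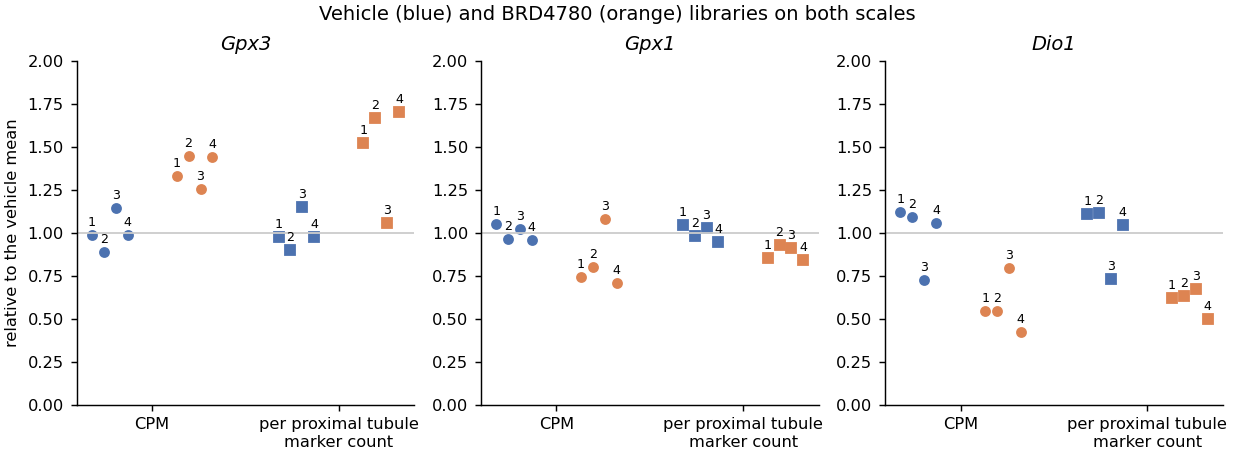
Gpx3, Gpx1 and Dio1 in each library relative to the vehicle mean (vertical axis, 1 is the vehicle mean), as CPM (circles) and per proximal tubule marker count (squares), for vehicle (blue) and BRD4780 (orange) replicates. BRD4780 replicate 3 moves toward its own group for Gpx1 and Dio1 and away from it for Gpx3 when the marker scale is used.

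Markers of other cell types were summed in the same way. The summed level of 9 podocyte markers, all counted, was 69.2 to 156 CPM with vehicle and 222 to 333 CPM with BRD4780. That of 9 endothelial markers was 153 to 286 CPM and 326 to 399 CPM, and neither pair of ranges overlapped. The 9 markers of thick ascending limb summed to 3746 to 4947 CPM with vehicle and 2565 to 4000 CPM with BRD4780, and the 8 measured macrophage markers to 744 to 802 CPM and 540 to 801 CPM. Erythrocyte markers (5 measured) ranged from 504 to 1611 CPM and from 188 to 815 CPM, and adipocyte markers (8) from 90.7 to 324 CPM and from 52.5 to 226 CPM. The 7 markers of distal convoluted tubule summed to 904 to 1301 CPM with vehicle and 1196 to 1693 CPM with BRD4780. Collecting duct markers (9) summed to 870 to 1180 CPM and 637 to 1089 CPM, and those of fibroblasts and smooth muscle (8) to 139 to 164 CPM and 148 to 193 CPM. Podocyte and endothelial markers thus separated the groups as Gpx3 did. Their part in the Gpx3, Gpx4 and Dio1 values was not tested.

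Genes outside the chosen ones took no part in the rule, and their tests come from the fit over all genes. The lists they stand in were drawn up with earlier results of these data known, so counts over a list are no independent evidence. Over all genes tested edgeR called 2.92%, which is the background for the count of each list. Of 16 other selenoprotein genes 8 had values and 7 were tested, and 0 passed edgeR's quasi-likelihood test. None of the 7 had an unadjusted p under 0.05, and DESeq2 called 0. Their median log2 fold change was −0.12. Txnrd1 had the smallest p, with 115 ± 4.95 CPM against 103 ± 18.3 CPM (SD, n = 4 each; adjusted p = 0.42 by edgeR). Dio3, which inactivates thyroid hormone, stood near 1 CPM, at 0.807 ± 0.445 and 1.27 ± 0.591 CPM. Of the 3 glutathione peroxidases that use cysteine besides Gpx6 (Gpx5, Gpx7 and Gpx8), Gpx7 and Gpx8 of the endoplasmic reticulum (ER) were tested and neither passed. Gpx7 held 0.897, 0.810, 0.670 and 0.992 CPM with vehicle and 1.53, 1.44, 1.50 and 1.84 CPM with BRD4780. These groups did not overlap, but the counts were few (log2 fold change 0.86 ± 0.24 SE, adjusted p = 0.0740 by edgeR). Gpx8 went from 11.4 ± 0.915 to 14.3 ± 2.56 CPM (SD, n = 4 each; adjusted p = 0.19 by edgeR).

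Of 17 genes for making and inserting selenocysteine, 0 passed edgeR's test (2.92% of all genes) and 2 had an unadjusted p under 0.05 (24.6%). Their median log2 fold change was −0.02. Sars, the seryl-tRNA synthetase that charges the selenocysteine tRNA with serine, had the smallest p, at 189, 199, 183 and 187 CPM with vehicle and 253, 279, 197 and 318 CPM with BRD4780. BRD4780 replicate 3 lay among the vehicle libraries, and the other 3 lay above all of them (log2 fold change 0.46 ± 0.13 SE, adjusted p = 0.0750 by edgeR). DESeq2 called Sars, at an adjusted p of 0.0169. The RNA-binding protein gene Ncl had a log2 fold change of 0.19 ± 0.09 (SE; adjusted p = 0.20 by edgeR). Of 9 genes for uptake and handling of selenium, 0 passed and 3 had an unadjusted p under 0.05 (24.6% of all genes). DESeq2 called 0 (10.2% of all genes). The log2 fold change was negative in 8, with a median of −0.20, against a median of 0.01 over all genes tested. Scly, which frees selenium from selenocysteine, stood at 92.6, 88.7, 79.8 and 88.6 CPM with vehicle and 56.4, 58.8, 86.9 and 69.9 CPM with BRD4780 (adjusted p = 0.13 by edgeR). Inmt, a methyltransferase for indoles and for selenium compounds, stood at 699, 935, 899 and 754 CPM with vehicle. With BRD4780 it stood at 380, 240, 801 and 177 CPM (log2 fold change −1.04 ± 0.38 SE, adjusted p = 0.14 by edgeR). Without BRD4780 replicate 3 the log2 fold change of Inmt was −1.62. In Scly and Inmt, BRD4780 replicate 3 lay within the vehicle values and the other treated libraries below them, and in Gpx1 those 3 libraries also lay below all vehicle values.

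Over these 4 lists together, 0 of 34 tested genes passed edgeR's test and 7 had an unadjusted p under 0.05 (24.6% of all genes). DESeq2 called 1, Sars (10.2% of all genes). The median log2 fold change was −0.08. Without BRD4780 replicate 3, edgeR called 10 of the 34, among them Sars, Scly, Inmt, Gpx7, Gpx8 and Ncl, in a fit that called 3184 genes in all.

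**Figure D5:**
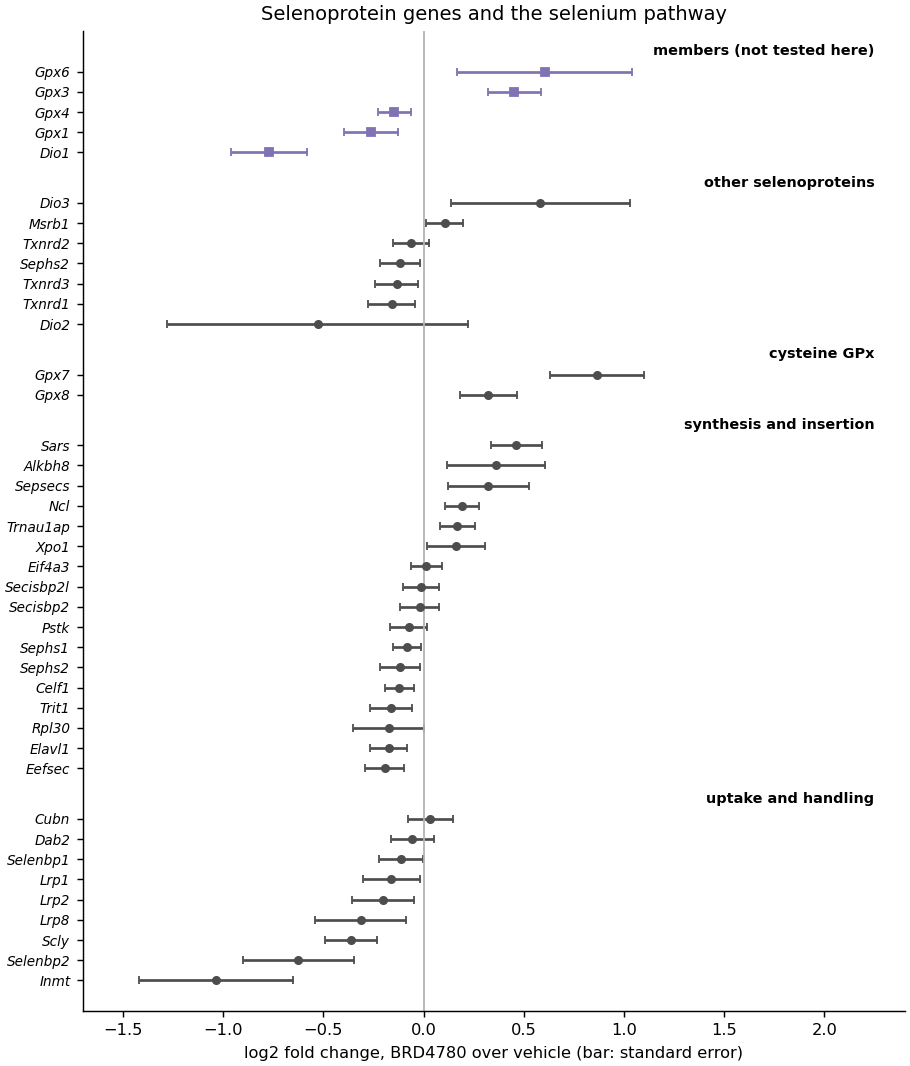
Log2 fold change of BRD4780 over vehicle (horizontal axis, bars are standard errors) for the 5 chosen genes (purple squares) and the tested genes of the 4 selenium lists (grey circles). Gpx3 and Dio1 lie on opposite sides of 0, the other selenoproteins have a median of −0.12, and Inmt has the lowest value at −1.04.

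Glutathione is the reductant that Gpx1, Gpx3 and Gpx4 use. Of 15 genes of its supply, breakdown and use 2 rose and 1 fell, against 2.30% and 0.623% of all genes. All treated libraries lay below all vehicle libraries in 4 of the 15 (5.16% of all genes) and above them in 2 (7.44%). At an unadjusted p under 0.05 there were 8 of 15 (24.6% of all genes), and DESeq2 called 6 (10.2%). The log2 fold change was negative in 11, with a median of −0.27, against a median of 0.01 over all genes tested. Chac1, which breaks glutathione down, rose from 1.08, 1.18, 0.914 and 1.38 CPM with vehicle to 4.26, 6.34, 3.30 and 11.2 CPM with BRD4780. All 4 treated libraries were above the vehicle libraries (log2 fold change 2.38 ± 0.37 SE, adjusted p = 0.0149 by edgeR). Glrx, a glutaredoxin, rose from 128 ± 4.71 to 164 ± 11.3 CPM (SD, n = 4 each; adjusted p = 0.040 by edgeR). Gss, which carries out the last step of glutathione synthesis, fell. It stood at 584, 611, 571 and 596 CPM with vehicle and 414, 329, 480 and 332 CPM with BRD4780, without overlap (log2 fold change −0.60 ± 0.12 SE, adjusted p = 0.036 by edgeR). Both calls of Glrx and Gss were lost on leaving out any library other than BRD4780 replicate 3, with adjusted p up to 0.13 for Glrx and 0.11 for Gss. Chac1 did not pass when vehicle replicate 1 or 2 was left out (adjusted p = 0.057 and 0.064).

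Of 14 enzymes that remove peroxide or superoxide without selenium, 0 passed edgeR's test. At an unadjusted p under 0.05 there were 6 (24.6% of all genes), and DESeq2 called 0 (10.2%). The median log2 fold change was −0.17. Srxn1, sulfiredoxin, had 0.24 ± 0.08 (SE; adjusted p = 0.11) and Sod2, the mitochondrial superoxide dismutase, −0.37 ± 0.13 (SE; adjusted p = 0.13), both by edgeR. Both passed without BRD4780 replicate 3, Srxn1 at an adjusted p of 0.0124 and Sod2 at 0.00088 (log2 fold change −0.54).

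Among 12 tested genes that act with or against Gpx4 in ferroptosis, 2 rose and 0 fell, against 2.30% and 0.623% of all genes. At an unadjusted p under 0.05 there were 4 of 12 (24.6% of all genes), and DESeq2 called 2 (10.2%). Slc3a2, the heavy chain of the cystine and amino acid transporters, rose from 150, 157, 159 and 147 CPM with vehicle to 235, 274, 224 and 336 CPM with BRD4780 (log2 fold change 0.80 ± 0.12 SE, adjusted p = 0.0141 by edgeR). Ncoa4, the receptor that delivers ferritin for breakdown, rose from 198, 182, 203 and 210 CPM to 239, 308, 267 and 333 CPM (adjusted p = 0.036 by edgeR). Neither gene overlapped between the groups. The call of Slc3a2 was lost without vehicle replicate 1 or 2 (adjusted p = 0.055 and 0.061), and that of Ncoa4 without any vehicle library or BRD4780 replicate 2 or 4 (adjusted p up to 0.12). Over these 12 genes the fold changes had a median of 0.23 (log2).

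Selenok and Selenos are ER membrane proteins that were not analysed here. The 14 genes listed as their ER partners, most of them in ER-associated degradation, do not stand in for their levels. Of these 14, 0 passed edgeR's test and 2 had an unadjusted p under 0.05 (24.6% of all genes). DESeq2 called 1, Herpud1 (10.2% of all genes). The ER stress gene Herpud1 had a log2 fold change of 0.44 ± 0.12 (SE; adjusted p = 0.0747 by edgeR and 0.0143 by DESeq2). Zdhhc6, the palmitoyltransferase that works with selenoprotein K, had −0.20 ± 0.09 (SE; adjusted p = 0.19 by edgeR). Without BRD4780 replicate 3 both passed, at adjusted p of 0.0094 for Herpud1 and 0.0196 for Zdhhc6. Of 13 genes of thyroid hormone handling, set beside Dio1, 1 fell and 0 rose. Thra, the thyroid hormone receptor alpha, fell from 34.1, 37.0, 30.8 and 31.2 CPM with vehicle to 16.2, 18.7, 22.8 and 20.1 CPM with BRD4780, without overlap. Its log2 fold change was −0.78 ± 0.11 (SE, adjusted p = 0.0121 by edgeR), and vehicle replicate 2 was needed for this call (adjusted p = 0.057 when it was left out). Over all 9 lists 4 of 102 tested genes rose and 2 fell, against 2.30% and 0.623% of all genes.

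The genes whose pattern over the 8 libraries was nearest to that of Gpx3 were sought among 8823 genes with a mean of at least 10 CPM. Nearness was the root mean square difference of log2 CPM after each gene's own mean was subtracted, and its median over these genes was 0.296. The nearest 5 were Foxo1 (0.0828), a forkhead transcription factor, Ptprd (0.0866), a receptor tyrosine phosphatase, Arhgef3 (0.0884), a guanine nucleotide exchange factor, Ankrd29 (0.0884) and Cplx2 (0.0894), a complexin. Foxo1 stood at 43.9, 46.7, 51.9 and 47.0 CPM with vehicle and 65.2, 63.1, 61.2 and 69.9 CPM with BRD4780. As in Gpx3, vehicle replicate 3 was the highest of its group and BRD4780 replicate 3 the lowest of its own. Ptprd, at 76.0, 65.4, 77.9 and 83.3 CPM with vehicle and 107, 106, 97.4 and 110 CPM with BRD4780, had its lowest treated value in BRD4780 replicate 3 as well. The order is a description of these 8 libraries, picked from many genes, and carries no test.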

How the data were processed

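Kidney mRNA of 8 mice, 4 per group, was captured on oligo-dT beads and made into stranded libraries, per the labels' protocols. Each library stands for a separate animal, as the design text has 4 mice in each arm. The deposited values are expected counts per gene, not normalized. Per the submitters' processing notes, Picard, STAR 2.5.2b and RSEM 1.3.0 were used, and mm10 and hg19 are named as builds without a role. Annotation, settings and use of strand: not given in the sources used here. Reads that map to several genes are split by RSEM, and between 15.1% and 28.9% of each library's values were fractional. A single column (1) of sample values had no matching sample and was left out. A set of 343 symbols stood on more than 1 line with the same values and was collapsed.

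Expected counts were rounded to whole numbers, filtered with filterByExpr (minimum count 10) and given TMM factors with edgeR 4.0.16 (R 4.3.3). The quasi-likelihood test compared BRD4780 with vehicle with no covariate, with Benjamini-Hochberg adjustment over 13474 genes and a threshold of 0.05. Log2 fold changes are BRD4780 over vehicle. DESeq2 1.42.0, other size factors, TMM without Gpx3, no filter and leaving out each library were alternatives. The Gpx3 share used rounded counts, ratios between genes used unrounded ones, and intervals and floors cover counting error only. Coordinates, lengths and codons came from GENCODE M21.

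The members and lists were chosen with earlier results of these data known. Named genes are the members, from each list those past the threshold or else the 2 with the smallest p, and the 5 genes nearest to Gpx3 in pattern. Replicate numbers follow the order of deposition and pair nothing.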

Additional observations from a re-analysis of the deposited data

Results flagged for a closer look

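Among the 50 sets of 4 libraries examined for a stray value, 1 stood out. Dio1 in vehicle replicate 3, at 24.6 CPM, was the lowest of the vehicle libraries, and its gap to the nearest of the other 3 was 0.847 of the range of the group, above Dixon's 95% critical value for 4 samples. Chance marks about 1 in 20 such groups.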

How the results depend on the processing

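No fold change of a member or named gene, and no difference in Gpx3 share, reversed its direction under any alternative that was run. DESeq2 called 850 genes higher and 505 lower. Leaving out 1 library at a time gave 26 to 1647 genes higher and 5 to 1537 lower, with the lowest counts without vehicle replicate 2 and the highest without BRD4780 replicate 3. The members called numbered 2 with DESeq2, 1 (Dio1) with no filter on low counts (418 genes in all) and 0 to 3 on leaving out 1 library. The members were chosen with this contrast known, so nothing is read from these counts. In the 4 selenium lists DESeq2 called 1 gene, and leaving out 1 library gave 0 to 10. In all 9 lists leaving out 1 library gave 0 to 14 genes higher and 0 to 26 lower, and DESeq2 called 5 lower. The cause was not tested. Relative log expression factors and TMM without Gpx3 gave the same calls or counts within 1.5 times. Over the 18 named genes of the lists, 179 of 216 values kept their side of the threshold, 25 lost a call and 12 gained one, and of 60 values of the members 6 passed it. The Gpx3 to Gpx1 ratio per kilobase moved as well, to 11.2 with the median coding length. With that length Dio1 lay above Txnrd1, and Gpx7 above Gpx6, in mean vehicle level. The Gpx3 ratio per proximal tubule marker of 1.49, a scale chosen after seeing the data, also moved. The difference in Gpx3 share stayed between 0.981 and 1.26 points. No paired analysis was made: the replicate numbers follow the order of deposition, and the titles of 2 vehicle mice share a number with those of 2 treated mice, with no label saying what it marks. Gpx6, Dio3 and Gpx7 stood near 1 CPM, so their values rest on few counts, and BRD4780 replicate 4 was the shallowest library.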
